A study of Rattus norvegicus with 8 samples.

Results

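The genes described here cover glucose transport and glucose production in the kidney: Slc5a1, Slc5a2, Slc2a1, Slc2a2, Slc37a4, Pck1, G6pc1, Fbp1, Pc and Pdk4. They were chosen by function, and every non-control probe whose RefSeq accession maps to one of the 10 symbols was taken, which gave 16 probes of the 41012 on the array. The array carries 14400 gene symbols in all, 10228 of which were bright enough to test. The tissue was the right kidney, taken from F344/NSlc rats that were female and 10 weeks old. Of the 8 samples, 4 came from the nephrectomized group, in which 1 kidney had been removed so that the other carries the whole load. The other 4 came from the sham group, which underwent an operation without removal. No label names an animal, so a numbered kidney below stands for the replicate of that number, and the spread between replicates may be technical. The study's design text places both groups at day 2 after the operation, whereas the sample names give day 2 for nephrectomized and day 1 for sham kidneys. Should the sample names hold, every difference below is one of day as well as of operation, and the share of each cannot be told apart.

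The kidney is, beside the liver, the main organ that makes glucose and releases it to the blood, and this is a task of the proximal tubule. The same tubule takes filtered glucose back from the urine through sodium-driven carriers on its luminal side and passes it to the blood through facilitative carriers on its other side. Glucose production runs from lactate, glutamine and glycerol and bypasses the irreversible steps of glycolysis with 4 enzymes of its own, pyruvate carboxylase, phosphoenolpyruvate carboxykinase, fructose-bisphosphatase and glucose-6-phosphatase. The enzymes between phosphoenolpyruvate and glucose that are left work in both directions and are shared with glycolysis. The comparison asked whether the transcripts of these carriers and enzymes differ in the kidney left behind early after the loss of the other.

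Every sample was read on a 1-colour array of its own. A level below is a probe's processed signal as a multiple of the 75th percentile of its array. It is thus relative to the other transcripts and not an amount per kidney. Levels of different probes are not set against each other. Of all probes, 59.5% to 66.0% were well above background on an array, no spot was saturated, and the 75th percentile signal lay between 388 and 643. The arrays came on 2 slides, with replicates 1 and 2 of both groups on slide 1 and replicates 3 and 4 on slide 2, and the difference within each slide is given beside the one over all arrays. On both slides the nephrectomized arrays held positions 3 and 4 and the sham arrays positions 1 and 2, so position and group cannot be told apart. The tissue matched its label: all 11 proximal tubule markers on the array were well above background on every array. Their summed level was 926 to 1130 in nephrectomized and 938 to 1157 in sham kidneys. Of their log2 differences, nephrectomized minus sham, 4 were positive and 7 negative. The median was -0.04, at -0.16 on slide 1 and -0.04 on slide 2. An unadjusted limma p under 0.05 was found for 1 of the 11, against 16.0% of all features, and the groups overlapped for all 11. Of 6 liver markers, Apoa2, Ttr, Cyp7a1 and Tat were well above background on no array and Alb on some but not all. Fgb, a fibrinogen chain, was well above it on all 8. It read 1.12 to 1.47 in nephrectomized and 1.01 to 1.22 in sham kidneys (log2 difference 0.25 ± 0.10, SE; limma adjusted p = 0.259). Of 5 skeletal muscle markers, Mb and Tnnt3 were well above background on all arrays and 3 on none. Of 4 fat and adrenal markers, Adipoq was so on all arrays and 2 on none. In whole kidney tissue, fewer cells of a type and less RNA per cell cannot be told apart.

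All 16 probes were well above background on all 8 arrays. None of the 10 genes passed an adjusted p of 0.05 in limma, against 1.04% of the 20925 features tested, of which 0.750% were higher and 0.287% lower. Of the 16 probes fitted one by one none passed either, against 0.825% of all tested probes. The nephrectomized and sham arrays overlapped for every one of the 10 genes, and they did not overlap for 11.1% of all features. At such shares, 10 genes are too few to be set apart from all features. One gene, Pc, had an unadjusted limma p under 0.05, as did 16.0% of all features. The log2 differences, nephrectomized minus sham, ran from -0.45 for Pdk4 to 0.12 for Slc5a1, 6 positive and 4 negative, with a median of 0.01 for the 10 genes and 0.01 for all features. Within slides the median of the 10 was -0.08 on slide 1 and 0.05 on slide 2. The 95% interval of the difference lay within 1.5-fold either way for 9 of the 10 genes, all but Pdk4. The plot of each gene's level by array shows these overlaps.

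**Figure D1:**
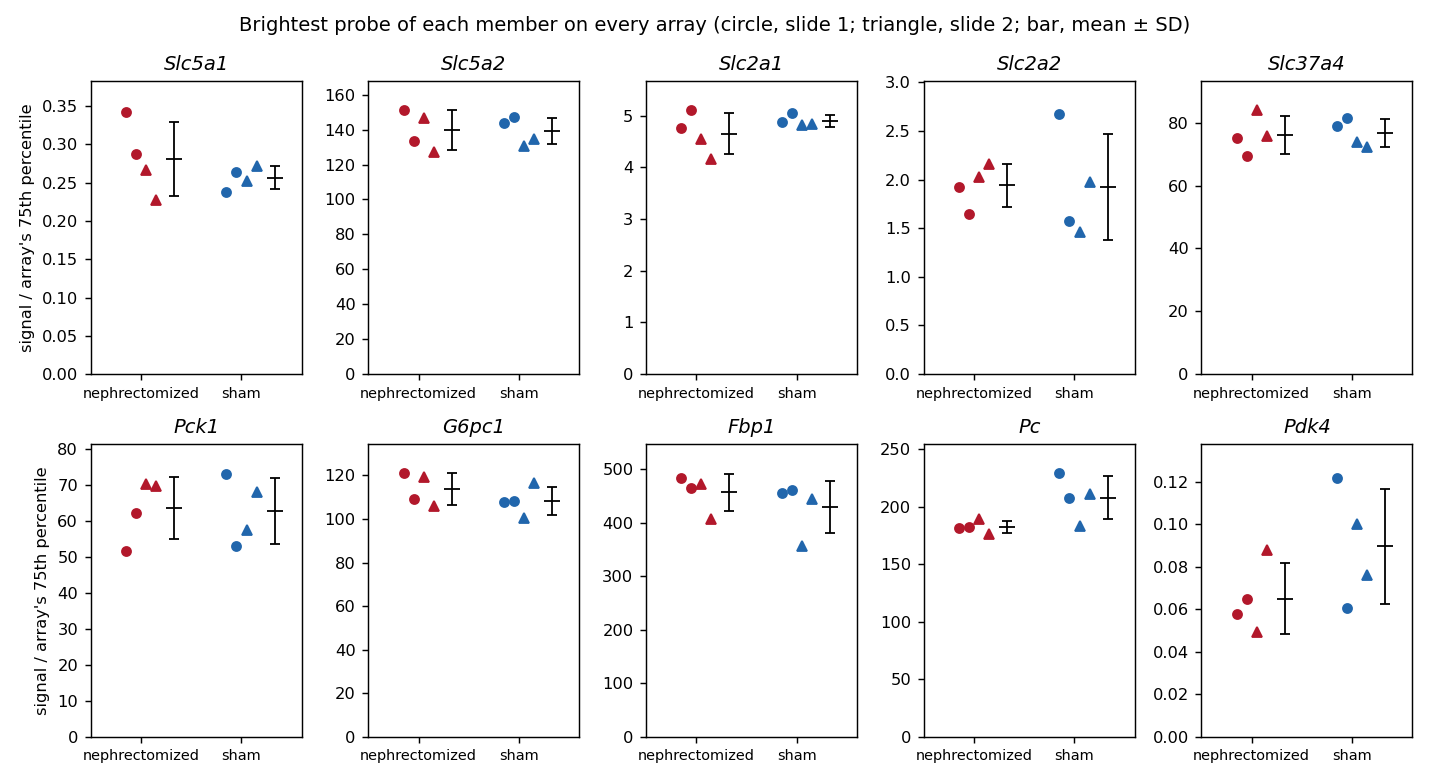
Level of each gene's brightest probe (processed signal divided by the array's 75th percentile, axis from 0) on the 4 nephrectomized arrays (red, left) and 4 sham arrays (blue, right), with circles for slide 1, triangles for slide 2 and bars for mean ± SD. The groups overlap in all 10 panels, and Pc comes nearest to a separation, with nephrectomized arrays at 176 to 189 and sham arrays at 184 to 229.

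The 2 sodium-glucose cotransporters take glucose up from the tubular fluid, Slc5a2 (SGLT2) the bulk of it in the early proximal tubule and Slc5a1 (SGLT1) the remainder further along. The brighter Slc5a2 probe, A_44_P996242, stood at 151, 133, 147 and 127 in nephrectomized kidneys 1 to 4 and at 144, 147, 131 and 135 in sham kidneys 1 to 4. Highest and lowest level were both in the nephrectomized group, and the sham levels lay between them. The means were 140 ± 11.3 in nephrectomized and 139 ± 7.72 in sham kidneys (SD, n = 4 each). The log2 difference was 0.00 ± 0.08 (SE; limma adjusted p = 0.990), with a 95% interval from -11.1% to 12.9% in the level. It was -0.04 on slide 1 and 0.04 on slide 2. The dimmer probe, A_44_P330330, gave 97.7, 80.9, 92.5 and 90.3 in nephrectomized and 95.2, 92.0, 83.0 and 85.9 in sham kidneys, and a difference of 0.02 ± 0.08 (limma adjusted p = 0.933 over all probes). Both probes placed the nephrectomized and sham means close together, and both had their lowest and their highest level in the nephrectomized group.

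Slc5a1 had 1 probe, A_42_P753429, at 0.342, 0.288, 0.267 and 0.227 in nephrectomized and 0.237, 0.265, 0.252 and 0.272 in sham kidneys. The nephrectomized kidneys spread over the whole range, with the highest and the lowest of the 8 levels among them, while the sham kidneys stayed close together. On the log2 scale the SD was 0.25 in nephrectomized and 0.09 in sham kidneys. Between the groups the log2 difference was 0.12 ± 0.12 (SE; limma adjusted p = 0.679). It took opposite signs on the slides, 0.32 on slide 1 and -0.09 on slide 2, and without nephrectomized kidney 1 it was 0.02.

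The facilitative carriers Slc2a2 (GLUT2) and Slc2a1 (GLUT1) pass glucose from tubule cells to the blood side, Slc2a2 in the early proximal tubule and Slc2a1 in later segments. The brighter Slc2a2 probe, A_44_P226612, read 1.93, 1.64, 2.02 and 2.16 in nephrectomized and 2.67, 1.57, 1.47 and 1.98 in sham kidneys. Sham kidney 1 was the highest of all and sham kidney 3 the lowest, with the nephrectomized kidneys between. The log2 difference was 0.05 ± 0.19 (SE; limma adjusted p = 0.935), at -0.21 on slide 1 and 0.30 on slide 2, and it was 0.22 without sham kidney 1. The dimmer probe, A_44_P488355, read 0.172, 0.198, 0.185 and 0.215 in nephrectomized and 0.261, 0.191, 0.206 and 0.200 in sham kidneys. Sham kidney 1 was again the highest. This probe gave a difference of the other sign, -0.15 ± 0.11 (limma adjusted p = 0.570 over all probes), so the sign for Slc2a2 depends on the probe.

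Slc2a1 was read by 1 probe, A_42_P684538, printed 10 times on each array. Its spot mean was 4.76, 5.11, 4.55 and 4.16 in nephrectomized and 4.87, 5.05, 4.83 and 4.83 in sham kidneys. The sham levels lay within a narrow band, and nephrectomized kidneys 1, 3 and 4 lay below all of it while nephrectomized kidney 2 lay above. The difference on the log2 scale was -0.08 ± 0.07 (SE; limma adjusted p = 0.630), at -0.01 on slide 1 and -0.15 on slide 2, and it was -0.03 without nephrectomized kidney 4. Each of the 10 spots taken on its own gave a negative difference, from -0.10 to -0.05. The spots share the same RNA and are not replicates of the operation. The SD between spots of 1 array had a median of 0.03 on the log2 scale. Pooled over both groups, the SD between arrays of a group was 0.09, which was 2.77 times as large. By group it was 0.12 in nephrectomized and 0.03 in sham kidneys. An array's value is the mean of its spots, whereas the SD between spots is that of single spots, so these SDs are unlike measures.

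The plot of all 16 differences sets the carriers and enzymes side by side.

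**Figure D2:**
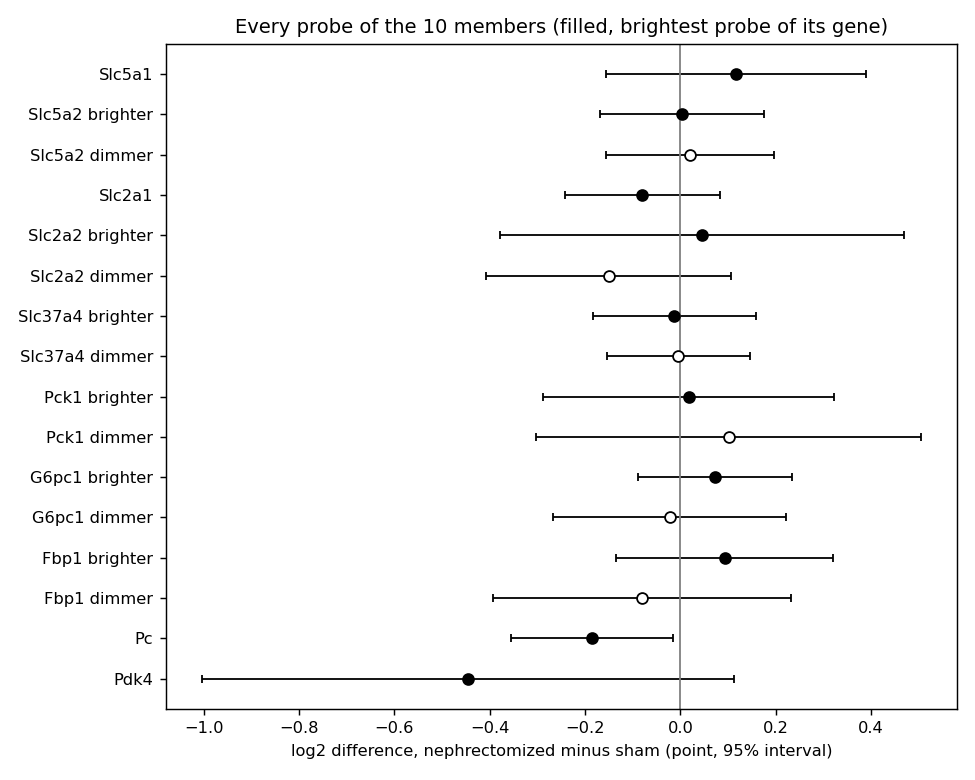
Log2 difference, nephrectomized minus sham, of each of the 16 probes, with its 95% interval from limma fitted to every probe (filled, the brightest probe of the gene; open, its other probe; n = 4 arrays per group). Apart from Pc every interval includes 0, and that of Pdk4 is the widest and reaches up to 0.11.

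Pck1 encodes cytosolic phosphoenolpyruvate carboxykinase, which turns oxaloacetate into phosphoenolpyruvate and is held to be the step at which the kidney's glucose production is set, with acidosis, cAMP and glucocorticoids raising it and insulin lowering it. The brighter probe, A_44_P517258, stood at 51.7, 62.2, 70.3 and 69.8 in nephrectomized and 72.9, 52.9, 57.5 and 67.9 in sham kidneys. Nephrectomized kidney 1 was the lowest and sham kidney 1 the highest, and each group held both low and high arrays. The means were 63.5 ± 8.69 in nephrectomized and 62.8 ± 9.22 in sham kidneys (SD, n = 4 each). The log2 difference was 0.02 ± 0.13 (SE; limma adjusted p = 0.967), with a 95% interval from -18.1% to 25.1%. It was -0.13 on slide 1 and 0.17 on slide 2.

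The dimmer Pck1 probe, A_44_P414625, is printed 10 times and averaged 26.0, 32.6, 35.8 and 43.1 in nephrectomized and 37.8, 26.7, 27.0 and 36.4 in sham kidneys. The same arrays were low by both probes: nephrectomized kidney 1 and sham kidneys 2 and 3. The difference was 0.10 ± 0.18 (limma adjusted p = 0.836 over all probes), and the 10 spots taken singly gave 0.05 to 0.16. The SD between single spots of 1 array had a median of 0.06 on the log2 scale. Between the spot means of arrays of a group it was 0.29, a ratio of 4.83. Across the 8 arrays the probes correlated with Pearson's r = 0.933 (exact permutation p = 0.00122, adjusted over 6 gene pairs 0.00729) and Spearman's rho = 0.881 (exact permutation p = 0.00724, adjusted 0.0435). Without the 2 arrays farthest from the median of the brighter probe r was 0.877, and with the group means removed it was 0.943. Each slide holds 4 arrays, too few for a value within it. Pck1 thus differed between arrays of the same group by far more than between spots of 1 array, and the group means lay close together. Spots of 1 array share the same RNA and array, so the spread between arrays may be that of kidneys or technical, which was not tested. By the brighter probe, the residual SD of Pck1 stood at percentile 76.6 among all features.

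G6pc1 encodes the catalytic subunit of glucose-6-phosphatase, which frees glucose in the last step, and Slc37a4 the transporter that carries glucose 6-phosphate to it across the endoplasmic reticulum membrane. The brighter G6pc1 probe, A_44_P330342, stood at 121, 109, 119 and 106 in nephrectomized and 108, 108, 101 and 116 in sham kidneys. Nephrectomized kidneys 1 and 3 lay above all sham kidneys, and the other nephrectomized kidneys lay among them. Between the groups the log2 difference was 0.07 ± 0.07 (SE; limma adjusted p = 0.666), at 0.09 on slide 1 and 0.06 on slide 2. The dimmer probe, A_44_P384066, read 6.69, 5.45, 7.45 and 6.27 in nephrectomized and 6.04, 6.80, 6.07 and 7.26 in sham kidneys, with a difference of -0.02 ± 0.11 (limma adjusted p = 0.948 over all probes). The probes differ in sign, and the 95% interval of each includes 0. By the brighter probe, the residual SD of G6pc1, at percentile 24.8 among all features, was the smallest of the 10 genes.

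Slc37a4 stood at 75.3, 69.3, 84.0 and 75.8 in nephrectomized and 78.9, 81.6, 74.0 and 72.2 in sham kidneys by its brighter probe, A_44_P1023264. Nephrectomized kidney 3 was the highest and nephrectomized kidney 2 the lowest. The log2 difference was -0.01 ± 0.07 (SE; limma adjusted p = 0.958), at -0.15 on slide 1 and 0.13 on slide 2. The dimmer probe, A_43_P12602, read 69.3, 68.9, 76.0 and 68.7 in nephrectomized and 68.5, 73.9, 66.4 and 75.1 in sham kidneys, and its difference was 0.00 on the log2 scale to 2 decimals (limma adjusted p = 0.984 over all probes).

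The promoters of Pck1 and G6pc1 are printed because these enzymes catalyse an early and the final step of the route and, by the brightest probe, Pck1 had a wide and G6pc1 the narrowest spread between arrays. The sequences are from RefSeq on GRCr8, read 5′ to 3′ on the strand of the gene, and end at the base before its start. They cover chr3:182348322-182348571 for Pck1 and chr10:86807409-86807658 for G6pc1, both on the plus strand, and capitals mark matches to the motifs searched.
Pck1: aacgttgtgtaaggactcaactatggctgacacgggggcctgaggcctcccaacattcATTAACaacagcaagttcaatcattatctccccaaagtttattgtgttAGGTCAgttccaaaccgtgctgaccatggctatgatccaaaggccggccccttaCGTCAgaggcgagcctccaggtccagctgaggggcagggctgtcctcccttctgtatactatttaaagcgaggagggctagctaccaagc
G6pc1: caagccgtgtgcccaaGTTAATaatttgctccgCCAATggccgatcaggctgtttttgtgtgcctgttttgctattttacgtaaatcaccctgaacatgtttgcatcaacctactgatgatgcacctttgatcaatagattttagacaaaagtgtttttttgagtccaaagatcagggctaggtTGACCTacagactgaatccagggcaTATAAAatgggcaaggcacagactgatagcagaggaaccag
The letters searched, on both strands, were the cAMP response element TGACGTCA and its core TGACG, the forkhead motif TGTTTAC, the HNF1 motif GTTAAT, the nuclear receptor motif AGGTCA, the glucocorticoid receptor motif TGTTCT, the CCAAT box CCAAT, the TATA box TATAAA, the E-box CACGTG and the GC box GGGCGG. The core is part of the full cAMP response element, and no other motif of the list contains another. Pck1 holds TGACG on the reverse strand at 90 to 86 bases before the start, a match found in 18.2% of the 33469 promoters of the same length. Both promoters hold GTTAAT, which 6.45% of promoters do, at 192 to 187 bases before the start in Pck1, on the reverse strand, and at 234 to 229 in G6pc1. Both also hold AGGTCA, present in 14.1% of promoters, at 144 to 139 bases in Pck1 and at 66 to 61 in G6pc1, there on the reverse strand. G6pc1 further holds CCAAT (34% of promoters) and TATAAA (12.9%). A match describes the letters of this window, and the arrays measured transcripts, not binding. Of the 10 genes 9 had a promoter in the table.

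Fbp1 encodes fructose-1,6-bisphosphatase, the enzyme that reverses phosphofructokinase. Its brighter probe, A_43_P14969, stood at 484, 464, 472 and 406 in nephrectomized and 456, 461, 356 and 445 in sham kidneys. Nephrectomized kidneys 1, 2 and 3 lay above all sham kidneys and nephrectomized kidney 4 below all but sham kidney 3. The difference on the log2 scale was 0.09 ± 0.10 (SE; limma adjusted p = 0.699), at 0.05 on slide 1 and 0.14 on slide 2. Without sham kidney 3, the lowest array, it was 0.01. The dimmer probe, A_44_P171995, read 44.3, 36.4, 52.6 and 48.9 in nephrectomized and 52.6, 48.2, 39.1 and 52.5 in sham kidneys, and its difference had the other sign, -0.08 ± 0.14 (limma adjusted p = 0.830 over all probes).

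Pc encodes pyruvate carboxylase, the mitochondrial enzyme that makes oxaloacetate from pyruvate and so opens the route from lactate. Its single probe, A_42_P533312, stood at 182, 182, 189 and 176 in nephrectomized and 229, 208, 184 and 211 in sham kidneys. The nephrectomized levels lay close together and below sham kidneys 1, 2 and 4, and sham kidney 3 fell inside their range. The means were 182 ± 5.43 in nephrectomized and 208 ± 18.7 in sham kidneys (SD, n = 4 each). The log2 difference was -0.19 ± 0.07 (SE), a fold of 0.879 with a 95% interval from 0.782 to 0.989. The unadjusted limma p was 0.0356 and the limma p adjusted over all features 0.273, so the difference did not pass the threshold. It was negative on both slides, at -0.26 on slide 1 and -0.11 on slide 2, and between -0.24 and -0.14 with each array left out in turn.

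Pdk4 encodes pyruvate dehydrogenase kinase 4, which shuts off the oxidation of pyruvate in fasting and so spares it for glucose production. Its single probe, A_44_P231269, was dim and read 0.0578, 0.0650, 0.0491 and 0.0880 in nephrectomized and 0.122, 0.0603, 0.100 and 0.0758 in sham kidneys. Sham kidneys 1 and 3 were the highest, and the others of both groups mixed. The processed signals behind these levels were 23.8 to 34.1 in nephrectomized and 32.8 to 78.2 in sham kidneys, while the lowest signal of any probe well above background was 13.7 to 28.0 on the nephrectomized and 20.4 to 31.1 on the sham arrays. Between the groups the log2 difference was -0.45 ± 0.25 (SE; limma adjusted p = 0.417), a fold of 0.734 with a 95% interval from 0.498 to 1.08. It was -0.48 on slide 1 and -0.41 on slide 2, -0.28 without sham kidney 1, and 0.06 in the normexp setting, which starts from median spot signals, corrects the background and adds an offset. Which of these steps turned the sign was not tested. The residual SD of Pdk4 was at percentile 93.4 among all features.

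In 6 genes a second probe allowed a test of whether 2 probes of a gene responded alike. The difference between the probes in their nephrectomized minus sham value, dimmer minus brighter, ran from -0.20 for Slc2a2 and -0.17 for Fbp1 through -0.09 for G6pc1, 0.01 for Slc37a4 and 0.02 for Slc5a2 to 0.08 for Pck1. The two-sided exact permutation p over the 70 assignments of arrays, of which the smallest possible is 0.0286, was 0.229 for Slc2a2 and G6pc1, 0.343 for Fbp1, 0.429 for Pck1, 0.800 for Slc5a2 and 0.857 for Slc37a4. Adjusted over the 6 pairs the p-values were 0.643 to 0.857. A single differing pair could not have passed 0.05 after this adjustment even at the smallest possible p, so these adjusted values do not show that the probes responded alike. The agreement of the probes over arrays varied more. Slc5a2 had r = 0.747 (exact permutation p = 0.0446, adjusted 0.134) and rho = 0.738 (exact permutation p = 0.0458, adjusted 0.138), with r = 0.911 without the 2 farthest arrays. G6pc1 had r = 0.646 and rho = 0.524, Slc2a2 r = 0.573 and rho = 0.381, and Slc37a4 r = 0.466 and rho = 0.286. For these 3 genes the exact permutation p adjusted over the pairs lay between 0.172 and 0.601, and r was 0.513, 0.202 and 0.0839 for G6pc1, Slc2a2 and Slc37a4 without the 2 farthest arrays. Fbp1 had r = 0.312 and rho = 0.0476 (adjusted exact permutation p = 0.492 and 0.935), and r turned to -0.35 without them. Pck1 was the gene whose arrays were ordered alike by both probes past the adjusted threshold.

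**Figure D3:**
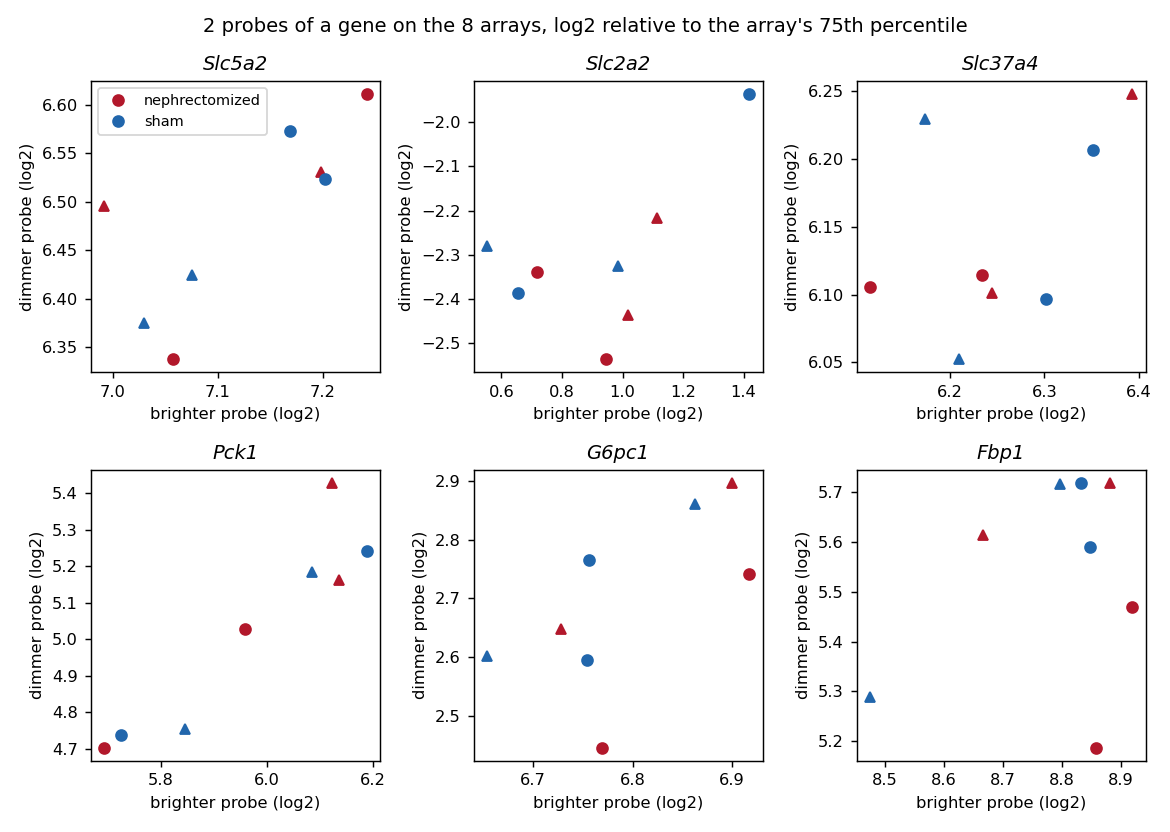
Log2 level of the dimmer probe against that of the brighter probe of the same gene on the 8 arrays (red, nephrectomized; blue, sham; circles, slide 1; triangles, slide 2). The points of Pck1 lie along a line (r = 0.933) with both groups mixed along it, whereas those of Fbp1 (r = 0.312) do not.

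No single array was high or low for all 10 genes. By the brightest probe, nephrectomized kidney 1 was the highest array for 4 genes, nephrectomized kidneys 2 and 3 for 1 each, and sham kidney 1 for 4. Nephrectomized kidney 4 was the lowest for 4 genes, nephrectomized kidneys 1, 2 and 3 for 1 each, and sham kidney 3 for 3. Nephrectomized kidney 4 also had the lowest 75th percentile signal, 388, and sham kidney 1 the highest, 643, and the part of that in these levels was not tested.

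Around the 10 genes lie 86 further genes of the pathway in 6 lists, 76 of them on the array and 70 tested. None passed the limma threshold, 21 had an unadjusted p under 0.05, against 16.0% of all features, and the groups did not overlap for 14, against 11.1% of all features. The log2 difference was positive for 46 and negative for 24. The smallest adjusted p was 0.0628, for Ldha. Under limma's trend and robust variance 3 of the 70 did pass, Ldha (adjusted p = 0.0290), Pgk1 and Hnf4a (adjusted p = 0.0354 each), while none of the 10 genes did.

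The other glucose carriers gave a median log2 difference of 0.06 over 9 genes tested, 0.30 on slide 1 and -0.02 on slide 2. Of the 9, 1 had an unadjusted limma p under 0.05, against 16.0% of all features, and none had groups apart, against 11.1%. Slc5a10, a cotransporter of mannose and fructose, spread over 45.2, 31.5, 28.7 and 19.4 in nephrectomized and 26.1, 36.1, 24.1 and 34.8 in sham kidneys. Its highest and lowest level were both in the nephrectomized group. The log2 difference was 0.00 ± 0.25 (SE, limma adjusted p = 0.998), at 0.30 on slide 1 and -0.29 on slide 2. Slc5a11, a carrier of myo-inositol, was at 0.01 ± 0.08 (limma adjusted p = 0.974). Slc2a9, which carries urate, stood at 4.12, 3.76, 4.20 and 4.15 in nephrectomized and 3.30, 3.01, 3.21 and 4.14 in sham kidneys. Sham kidney 4 lay within the nephrectomized range, and the log2 difference was 0.26 ± 0.10 (limma adjusted p = 0.265). Its dimmest tested probe gave -0.06 and the mean of its probes 0.10, so the sign depends on the probe.

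A list of other enzymes of glucose production held 13 tested genes. Gpi, Tpi1, Gapdh, Pgk1, Pgam1 and Eno1 are steps shared with glycolysis, Pck2, Fbp2 and G6pc3 are relatives of the enzymes above, and Mdh1, Mdh2, Got1 and Got2 interconvert oxaloacetate with malate and aspartate. A positive log2 difference was found for 12 of the 13, with a median of 0.22, 0.16 on slide 1 and 0.30 on slide 2. Of the 13, 9 had an unadjusted p under 0.05, against 16.0% of all features, and 7 had groups that did not overlap, against 11.1%. The 7 were G6pc3, Gpi, Tpi1, Gapdh, Pgk1, Mdh2 and Got2, named as a group after their values were seen. Pgk1, phosphoglycerate kinase, stood at 30.0, 29.7, 31.1 and 31.8 in nephrectomized and 26.8, 23.1, 21.8 and 25.5 in sham kidneys. Every nephrectomized kidney lay above every sham kidney, and the log2 difference was 0.34 ± 0.08 (SE; limma adjusted p = 0.0759). Gapdh, glyceraldehyde 3-phosphate dehydrogenase, stood at 210, 194, 183 and 181 in nephrectomized and 179, 153, 129 and 150 in sham kidneys, likewise without overlap (0.34 ± 0.10, SE; limma adjusted p = 0.156). Eno1, enolase, overlapped between groups (0.14 ± 0.10, SE; limma adjusted p = 0.542).

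A list of hexokinases, phosphofructokinases and pyruvate kinases also held Pfkfb2, Pfkfb3 and Pfkfb4, bifunctional enzymes that make and break down the regulator fructose 2,6-bisphosphate. Of its 9 tested genes 8 were positive, with a median of 0.22, 0.20 on slide 1 and 0.17 on slide 2. An unadjusted p under 0.05 was found for 4 of the 9, against 16.0% of all features, and no overlap for 2, Pfkm and Pfkfb2, against 11.1%. Pfkm, the muscle-type phosphofructokinase, stood at 9.95, 10.5, 10.2 and 11.3 in nephrectomized and 9.16, 8.69, 9.39 and 8.71 in sham kidneys. All nephrectomized kidneys lay above all sham kidneys (0.22 ± 0.06, SE; limma adjusted p = 0.128). Hk1, hexokinase 1, was at 0.22 ± 0.08 (limma adjusted p = 0.244), with sham kidney 3 within the nephrectomized range.

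Of 10 genes for the entry of pyruvate into mitochondria and for pyruvate dehydrogenase and its kinases and phosphatases, 7 were positive. Their median was 0.08, 0.07 on slide 1 and 0.10 on slide 2. An unadjusted limma p under 0.05 was found for 2 of the 10, against 16.0% of all features. Groups did not overlap for 2, Dlat and Pdhb, against 11.1%. Dlat, the acetyltransferase subunit of pyruvate dehydrogenase, stood at 5.74, 5.48, 6.05 and 5.90 in nephrectomized and 5.27, 4.43, 4.36 and 5.03 in sham kidneys, with no overlap (0.28 ± 0.08, SE; limma adjusted p = 0.124). The pyruvate carrier subunits were at 0.06 ± 0.11 for Mpc2 (limma adjusted p = 0.822) and -0.01 ± 0.07 for Mpc1 (limma adjusted p = 0.964).

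Genes that supply the substrates had a median of 0.07 over 11 tested, 0.01 on slide 1 and 0.09 on slide 2. Ldha alone had an unadjusted limma p under 0.05, against 16.0% of all features, and alone had no overlap, against 11.1%. Ldha, the lactate dehydrogenase subunit of muscle type, stood at 6.22, 6.42, 6.24 and 6.41 in nephrectomized and 5.47, 4.58, 4.71 and 5.30 in sham kidneys. It had no overlap and a log2 difference of 0.34 ± 0.07 (SE; limma adjusted p = 0.0628). Ldhb, the heart-type subunit, was at 0.13 ± 0.08 (limma adjusted p = 0.497) and Glud1, glutamate dehydrogenase, at 0.02 ± 0.07 (limma adjusted p = 0.940).

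Of 18 regulators 13 were negative, with a median of -0.09 (-0.07 on each slide). An unadjusted p under 0.05 was found for 4 of the 18, against 16.0% of all features, and no overlap for 2, Hnf4a and Klf15, against 11.1%, so these shares were near those of all features. Hnf4a, a nuclear receptor of liver and proximal tubule, stood at 17.8, 16.9, 18.8 and 18.0 in nephrectomized and 21.0, 21.6, 20.8 and 21.0 in sham kidneys. All nephrectomized kidneys lay below all sham kidneys, with a log2 difference of -0.24 ± 0.05 (SE; limma adjusted p = 0.0739). Klf15, a factor induced by glucocorticoids, stood at 24.1, 23.3, 23.9 and 16.7 in nephrectomized and 25.9, 24.1, 25.2 and 30.8 in sham kidneys. The groups met without crossing, and the difference was -0.28 ± 0.13 (SE; limma adjusted p = 0.354). It was -0.08 on slide 1 and -0.48 on slide 2, and without nephrectomized kidney 4 it was -0.15. Pth1r, the parathyroid hormone receptor, overlapped between groups (-0.11 ± 0.09, SE; limma adjusted p = 0.606). The plot of the lists sets the 10 genes beside these further genes.

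**Figure D4:**
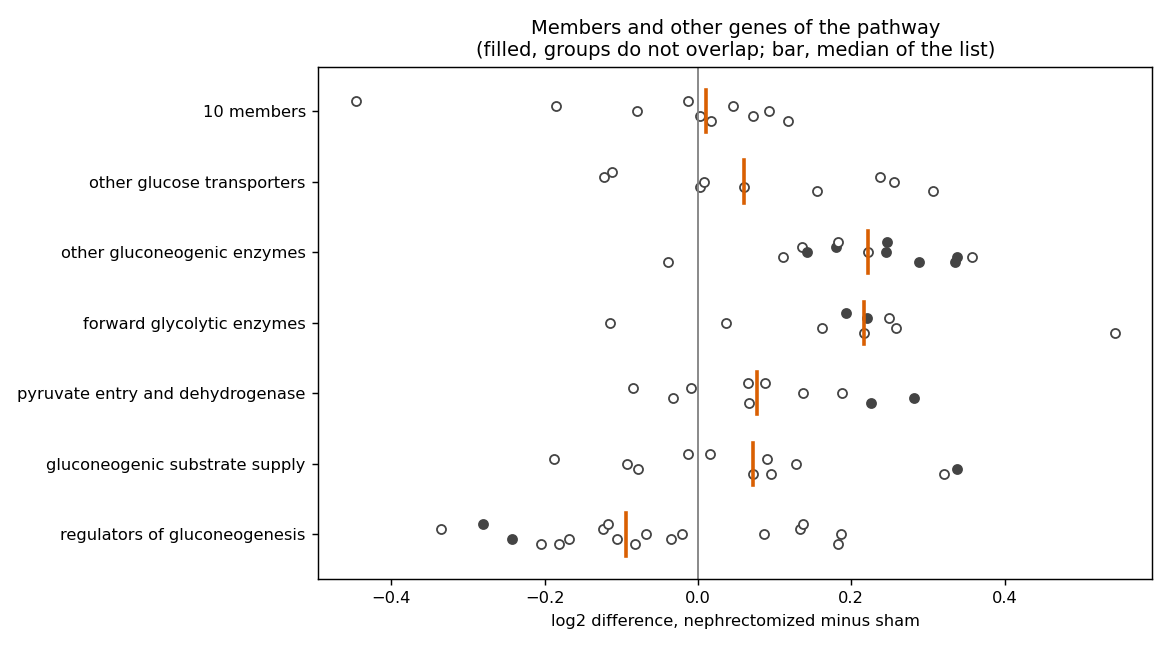
Log2 difference, nephrectomized minus sham, of the 10 genes and of the tested genes of 6 further lists (1 point a gene; filled, groups do not overlap; bar, median of the list). The medians are 0.01 for the 10 genes, 0.22 for the other gluconeogenic enzymes and 0.22 for the forward glycolytic enzymes. None of these genes passed the limma threshold.

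Markers of other cells were set beside these values. Distal nephron and collecting duct markers, 8 of 8 above background on every array, summed to 479 to 699 in nephrectomized and 550 to 599 in sham kidneys. Umod alone read 362 to 574 in nephrectomized and 443 to 499 in sham kidneys, so the sums are mostly Umod. Of the 8 differences 5 were positive and 3 negative. Groups did not overlap for 1, Calb1, named after the values were seen (0.46, limma adjusted p = 0.0517), against 11.1% of all features. Leukocyte markers were above background on every array for 3 of 6, and Itgam on none. Their sums were 2.65 to 3.15 in nephrectomized and 3.10 to 3.69 in sham kidneys. Cd68 alone read 2.08 to 2.43 in nephrectomized and 2.26 to 2.63 in sham kidneys, so the sums are mostly Cd68 (-0.11, limma adjusted p = 0.528). All 3 tested markers were negative. Of the 3, 1 passed the limma threshold, against 1.04% of all features, and 1 had no overlap, against 11.1%. Both counts are Adgre1, named after the values were seen (-0.51, limma adjusted p = 0.0475). The part of all these markers in the values of the glucose genes was not tested.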

How the data were processed

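Total RNA of 8 right kidney samples was labelled with Cy3 and hybridised to 1-colour Agilent rat arrays, per the labels' protocols. Per the file headers, the authors read the images with Agilent Feature Extraction 10.5.1.1 and deposited its output for every array. Its processed signal is, as deposited, a linear intensity after background subtraction, with no scaling across arrays. Median spot and background intensities and 0 or 1 flags stand beside it. The deposited series table holds log2 values that the labels do not describe. They followed scanner log2 values from which each probe's median over the 8 arrays was subtracted, with a slope of 1.00. Its column medians were 0.00123, 0.0124, -0.000916 and 0.0153 for nephrectomized replicates 1 to 4 and -0.0145, -0.00231, -0.00103 and -0.00968 for sham replicates 1 to 4. These medians lay close to 0 although the arrays' 75th percentile signals ran from 388 to 643. The columns thus also carry a scaling per array, which a slope does not show. The log2 scale, the centring per probe and the direction are thereby settled, but how the arrays were scaled is not described.

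From the processed signal, log2 minus the array's 75th percentile was taken. Of 45018 spots, 1639 control spots and flagged outliers were left out, and spots of a probe were averaged. Probes well above background on at least 4 arrays were tested (25219). Symbols came from RefSeq accessions (GRCr8; 18713 probes matched); the headers name another assembly, so genes have no coordinates. Each gene was represented by its brightest probe, and every probe was also fitted alone. The test was limma 3.58.1 (lmFit, eBayes; R 4.3.3) on nephrectomized minus sham, with degrees of freedom of 6 (residual) and 2.37 (prior) and Benjamini-Hochberg adjusted p-values over all features. The steps were tested on simulated data. No label names an animal, so the spread behind each p-value is that of these samples and may be technical, and the number of arrays limits precision. Correlations of deviations between same-numbered arrays, 0.14, 0.01, -0.06 and -0.21, did not show them to be paired.

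The 10 genes, the lists and the motifs were chosen with earlier results of these data known. Named are all 10 genes, and of each list the 2 brightest genes and the one with the smallest p. Alternatives were normexp, quantile and median normalization, a percentile over bright probes, other filters, other rules for probes, trend and robust variance, array weights, slide and replicate blocks, the series table, each slide alone and each array left out. Normexp was planned on mean spot signals and was run on the median ones that the files hold (offset 50).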

Additional observations from a re-analysis of the deposited data

Results flagged for a closer look

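In 3 of the 66 groups of 4 arrays examined for the named genes and probes, 1 array stood far from the other 3 by Dixon's test, which by chance picks about 1 of 20 groups. For Slc37a4, the dimmer probe read 76.0 in nephrectomized kidney 3 and 68.7 to 69.3 in the other nephrectomized kidneys. For Fbp1, the brighter probe read 356 in sham kidney 3 and 445 to 461 in the other sham kidneys. Klf15 read 16.7 in nephrectomized kidney 4 and 23.3 to 24.1 in the other nephrectomized kidneys.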

How the results depend on the processing

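None of the 10 genes passed the limma threshold under any of the 23 alternatives run, and no member probe did under those computed for the probes. The exact test of the probe pairs, adjusted over 6 pairs, could not have found 1 differing pair, so its settings say nothing about stability. The smallest adjusted p of the 10 was 0.0977, for Pc after quantile normalization. Signs depended on the setting, mostly for values near 0 but also for Pdk4, at -0.45 in the report, and Slc2a9, at 0.26. Normexp gave -0.0149 for G6pc1, 0.0602 for Pdk4 and -0.0804 for Glud1. Quantile normalization gave -0.0430 for Slc5a2, -0.0358 for Glud1, -0.0454 for Pck1, -0.0463 for Slc5a10 and -0.0134 for Slc5a11. Median normalization gave -0.00606 for Slc5a2, -0.00709 for Slc5a10 and -0.00104 for Slc5a11, and the percentile over bright probes -0.000931 for Slc5a2 and -0.00196 for Slc5a10. The mean of a gene's probes gave -0.0524 for Slc2a2. The dimmest probe of each gene, a setting chosen after seeing the data, gave -0.15 for Slc2a2, -0.0224 for G6pc1, -0.0806 for Fbp1, -0.0603 for Slc2a9 and -0.00482 for Glud1. Array weights gave -0.00488 for Slc5a2, -0.12 for Slc5a10, -0.0208 for Slc5a11, -0.0152 for Mpc2 and -0.0149 for Glud1. Slide 1 alone gave -0.0360 for Slc5a2, -0.21 for Slc2a2, -0.13 for Pck1 and -0.11 for Slc5a11, and slide 2 alone -0.0892 for Slc5a1, 0.13 for Slc37a4, -0.29 for Slc5a10 and 0.0138 for Mpc1. With each array left out, the values ran from -0.0365 to 0.0468 for Slc5a2, -0.0714 to 0.22 for Slc2a2, -0.0612 to 0.0315 for Slc37a4, -0.0614 to 0.11 for Pck1, -0.20 to 0.21 for Slc5a10, -0.0639 to 0.0481 for Slc5a11, -0.0258 to 0.12 for Mpc2, -0.0540 to 0.0202 for Mpc1 and -0.0372 to 0.0463 for Glud1. The cause of these turns was not tested.

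Of the 70 further genes, 1 passed when only probes above background on all arrays were tested (Ldha, adjusted p = 0.0492), 3 with trend and robust variance (Pgk1 0.0354, Ldha 0.0290, Hnf4a 0.0354) and 2 with array weights (Pgk1 and Ldha, 0.0448), all by limma. Features called over the whole array, 157 higher and 60 lower, were 17 and 3 without a filter, 295 and 99 with the filter on all 8 arrays, 400 and 132 with trend and robust variance, 338 and 110 with array weights, 69 and 31 with slide as a block, 6 and 4 with the replicate block, and 39 lower with the dimmest probe. Each slide alone gave 0 and 0 by limma, with 1885 features at an unadjusted p under 0.05 on slide 1 and 1744 on slide 2. Leaving out 1 array gave 18 to 162 higher and 4 to 35 lower: without nephrectomized replicate 1 the counts were 162 and 35, and without any of the other 7 arrays 18 to 41 and 4 to 14. The replicate block changed no call among the 10 genes, but the numbers are not shown to pair the arrays.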
